A study of Mus musculus with 8 samples.

Results

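The Spi1 locus of mouse chromosome 2 was described here through its accessible sites. Members were all peaks of the ATAC-seq table that overlap a 45 kb window of the mm9 build (chr2:90915000-90960000). The rule uses position only and no measured value, and it found 8 of the 134473 peaks in the table. ATAC-seq marks open chromatin by where the Tn5 transposase inserts sequencing adapters, and each value here is a count in a peak. The groups were Vwf+Gata1+ and Vwf-Gata1+ MPP2 cells, sorted from bone marrow of C57BL/6 mice of 8 to 12 weeks, with 500 cells per library and 4 libraries per group. Both groups share the LSK Flt3-CD150+CD48+ gate (lineage-negative, Sca1-positive, Kit-positive) and the Gata1+ gate, and they differ in Vwf, which encodes the clotting protein von Willebrand factor. The sources used here do not give how Vwf and Gata1 were detected for the sort.

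Spi1 encodes PU.1, an ETS-family transcription factor that drives the formation of macrophages, granulocytes and B cells. In blood progenitors PU.1 and GATA1 bind each other and each holds back the other's target genes, so the level of PU.1 relative to GATA1 is a textbook example of a lineage switch between the myeloid and the erythroid and megakaryocyte fates. Much of the output of the gene depends on an upstream regulatory element (URE) about 14 kb before its start, which RUNX1 and PU.1 itself bind. Deletion of this element in mice lowers PU.1 and leads to leukaemia. The comparison asks whether chromatin at this myeloid regulator differs between Gata1+ progenitors with and without Vwf.

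Total counts in peaks ran from 4628997 to 7753538 per library, of which the 8 peaks held 501 to 835. Signal is given as counts per 1000000 counts in tested peaks (CPM) after TMM scaling, which corrects for the makeup of each library. A library pools 500 cells, so a site open in fewer cells and a site less open in each cell cannot be told apart. Whether the replicates came from separate animals is not given in the labels, so p-values rest on the spread among these libraries alone, and that spread may be partly technical. Vwf, Gata1 and the gate markers were not checked at their own peaks, because no annotation of the mm9 build was used here.

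Spi1 reads on the plus strand, and its start and end were taken as about 90936900 and 90955900 in mm9. Peaks are named by the distance of their midpoint from this approximate start, with negative values upstream. They were not assigned to exons, introns or untranslated regions. The promoter peak (chr2:90936398-90938254) is 1857 bp wide and spans the approximate start. The URE peak (chr2:90923016-90923855) is 840 bp wide, has its midpoint at −13.5 kb and overlaps the stated position of the element by 485 bp, or 57.7% of its width. It is flanked by a −18.0 kb peak (chr2:90918340-90919386) and by a narrow −12.0 kb peak (chr2:90924766-90924977). The gap between the −12.0 kb peak and the promoter peak is 11.4 kb and holds no peak. Past the promoter lie a +1.6 kb peak (chr2:90938420-90938631), a +4.8 kb peak (chr2:90941550-90941896), a +11.6 kb peak (chr2:90948316-90948744) and a +18.6 kb peak (chr2:90955216-90955702), which ends about 0.2 kb before the stated gene end. In the RefSeq table of the GRCm38.p6 assembly, the genes next to Spi1 are Gm39874, a long noncoding RNA gene, on one side and Mybpc3, a cardiac muscle gene, on the other. The RefSeq record of Spi1 is 33.4 kb long against 19.0 kb between the stated mm9 positions, and whether its added length reaches the upstream peaks was not examined.

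All 8 Spi1 peaks held counts in each of the 8 libraries, and their summed signal differed by less than the spread between replicates. The 8 peaks together had 107.1 ± 10.9 CPM over Vwf+Gata1+ libraries, against 104.9 ± 7.06 CPM over Vwf-Gata1+ libraries (± SD, n = 4 per group). The ranges overlapped, with 94.0 to 120.1 CPM in Vwf+Gata1+ libraries and 94.7 to 109.9 CPM in Vwf-Gata1+ libraries. Over both groups the peaks covered 5431 bp, or 12.1% of the window. For scale, the genome was cut on a fixed grid into windows of the same length, with peaks assigned by midpoint. Among the 32879 grid windows that hold a peak, the median was 3 peaks and 14.5 CPM. Of these windows, 90.6% had no more peaks than the locus and 93.9% had no more signal. The locus window was instead placed around the gene and its upstream element, so the comparison is not between like windows.

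**Figure D1:**
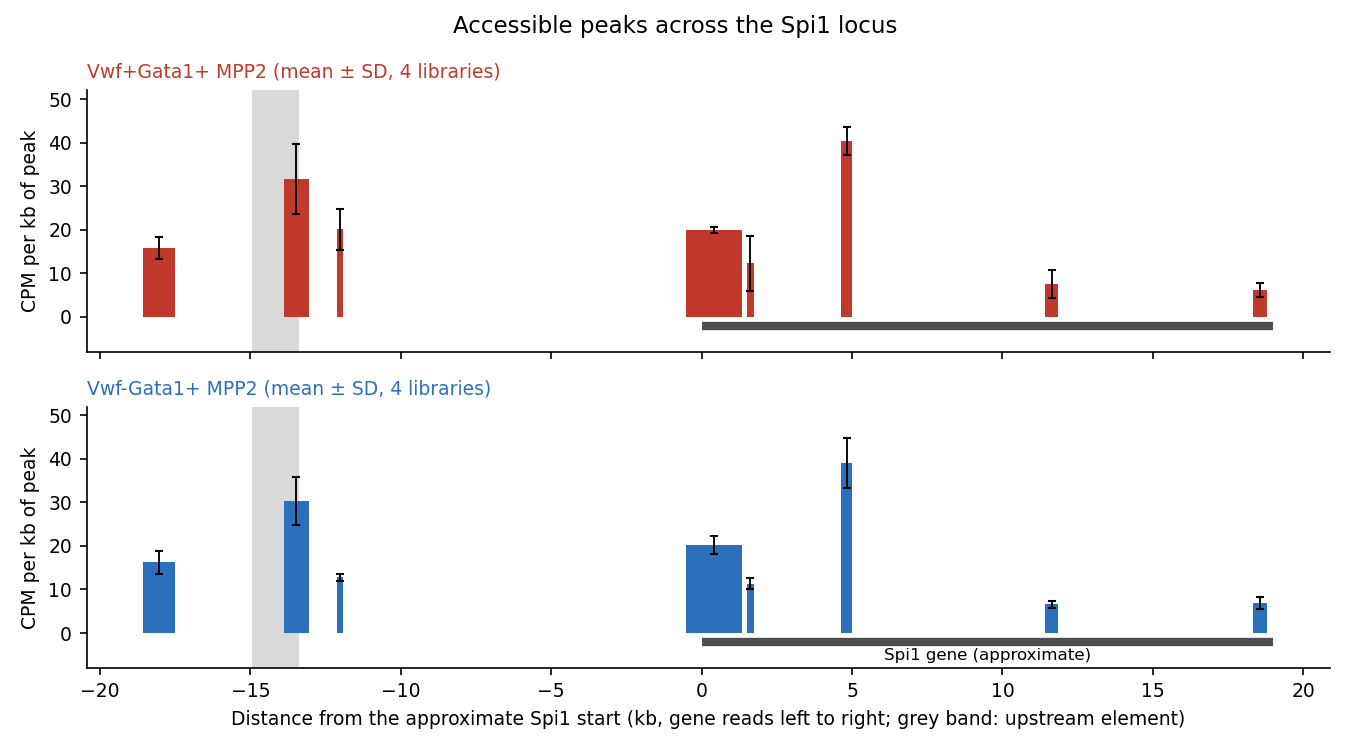
Signal per kb of peak (CPM per kb, mean ± SD over 4 libraries) against distance from the approximate Spi1 start in kb, with Vwf+Gata1+ cells above and Vwf-Gata1+ cells below; bar width is peak width, the grey band is the stated upstream element and the dark line the gene. The +4.8 kb peak is the tallest bar in both groups, at 40.3 and 39.0 CPM per kb, and the −12.0 kb bar is the one that differs most, at 20.1 and 12.8 CPM per kb.

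The promoter peak held the most signal. It had 36.7, 35.1, 37.8 and 38.2 CPM in replicates 1 to 4 of Vwf+Gata1+ cells, against 35.4, 38.9, 33.7 and 42.5 CPM in replicates 1 to 4 of Vwf-Gata1+ cells. The Vwf+Gata1+ libraries lay inside the range of the Vwf-Gata1+ libraries. The means were 37.0 ± 1.40 CPM over Vwf+Gata1+ libraries, against 37.6 ± 3.88 CPM over Vwf-Gata1+ libraries (± SD, n = 4 per group), a log2 difference of -0.028 ± 0.095 (SE; edgeR adjusted p = 0.983). The 95% interval of the difference ran from 0.859-fold to 1.12-fold, so it leaves out any change of 1.2-fold or more in either direction at this peak.

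The URE peak also differed by less than the spread between replicates. It had 24.9, 19.7, 35.8 and 25.9 CPM in replicates 1 to 4 of Vwf+Gata1+ cells, against 24.3, 20.1, 31.2 and 26.1 CPM in replicates 1 to 4 of Vwf-Gata1+ cells. Replicate 3 was high and replicate 2 low in both groups, and the groups overlapped over nearly their whole range. The means were 26.6 ± 6.70 CPM over Vwf+Gata1+ libraries, against 25.4 ± 4.58 CPM over Vwf-Gata1+ libraries, a log2 difference of 0.055 ± 0.14 (SE; edgeR adjusted p = 0.977). With the replicate number added to the fit as a block, the log2 difference was 0.048 ± 0.092 (SE), with a 95% interval from -0.13 to 0.23. Without the block, the 95% interval ran from 0.852-fold to 1.27-fold. The sign of this small difference turned without replicate 3 of Vwf+Gata1+ cells (log2 difference -0.094) and without replicate 2 of Vwf-Gata1+ cells (-0.040), as did that of the promoter without replicate 4 of Vwf-Gata1+ cells (0.034).

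The ratio of URE signal to promoter signal overlapped between the groups. Its mean was 0.715 ± 0.163 over Vwf+Gata1+ libraries, against 0.686 ± 0.174 over Vwf-Gata1+ libraries (± SD, n = 4 per group). It ran from 0.561 to 0.945 in Vwf+Gata1+ libraries and from 0.518 to 0.925 in Vwf-Gata1+ libraries. The URE peak took 24.6% ± 3.83 of the counts of the locus over Vwf+Gata1+ libraries, against 24.1% ± 3.10 over Vwf-Gata1+ libraries, and the promoter peak 34.7% ± 2.76 and 36.0% ± 4.68. Over the 8 libraries, log2 signal at the URE and at the promoter showed no relation that could be told from 0 (Pearson r = -0.034, exact permutation p = 0.957; Spearman rho = 0.095, exact permutation p = 0.840; 1 relation tested). Without the 2 libraries farthest from the median URE signal, replicates 2 and 3 of Vwf+Gata1+ cells, r was -0.42 (exact permutation p = 0.411). These permutations treat the libraries as independent. At the URE the replicate numbers stood in the same order in both groups, so the p-values may not hold.

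The −12.0 kb peak, 910 bp past the end of the URE peak, had the largest difference of the locus. It had 3.95, 3.75, 5.73 and 3.59 CPM in replicates 1 to 4 of Vwf+Gata1+ cells, against 2.74, 2.92, 2.54 and 2.63 CPM in replicates 1 to 4 of Vwf-Gata1+ cells. All 4 Vwf+Gata1+ libraries lay above all 4 Vwf-Gata1+ libraries. Groups were apart in this way, in either direction, at 3.88% of all tested peaks. The means were 4.26 ± 0.993 CPM over Vwf+Gata1+ libraries, against 2.71 ± 0.167 CPM over Vwf-Gata1+ libraries (± SD, n = 4 per group), a log2 difference of 0.61 ± 0.25 (SE), or 1.53-fold with a 95% interval from 1.08-fold to 2.18-fold. This difference did not pass the threshold over all tested peaks (edgeR unadjusted p = 0.0191, adjusted p = 0.646).

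The counts behind the −12.0 kb peak were low, at 30, 20, 25 and 25 in Vwf+Gata1+ libraries and 21, 19, 13 and 18 in Vwf-Gata1+ libraries. Counting error alone gives a spread of about 20.2% and 24.0% between libraries at such counts. The measured spread was 23.3% of the mean in Vwf+Gata1+ cells, against 6.15% in Vwf-Gata1+ cells, the second well under counting error. Without replicate 3 of Vwf+Gata1+ cells the log2 difference was 0.47 (edgeR adjusted p = 0.858, and 0.332 or more in each of the other fits). Set against the URE peak beside it, the −12.0 kb signal was 0.162 ± 0.0213 of the URE signal over Vwf+Gata1+ libraries, against 0.110 ± 0.0268 over Vwf-Gata1+ libraries. Here the groups overlapped, with 0.139 to 0.190 in Vwf+Gata1+ libraries and 0.0812 to 0.145 in Vwf-Gata1+ libraries. Set against the −18.0 kb peak the groups overlapped too, with 0.201 to 0.329 in Vwf+Gata1+ libraries and 0.129 to 0.216 in Vwf-Gata1+ libraries. Set against the promoter peak the groups did not overlap, with 0.0940 to 0.152 in Vwf+Gata1+ libraries and 0.0619 to 0.0775 in Vwf-Gata1+ libraries. These ratios reuse the same −12.0 kb counts, so they are no separate support for the difference.

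**Figure D2:**
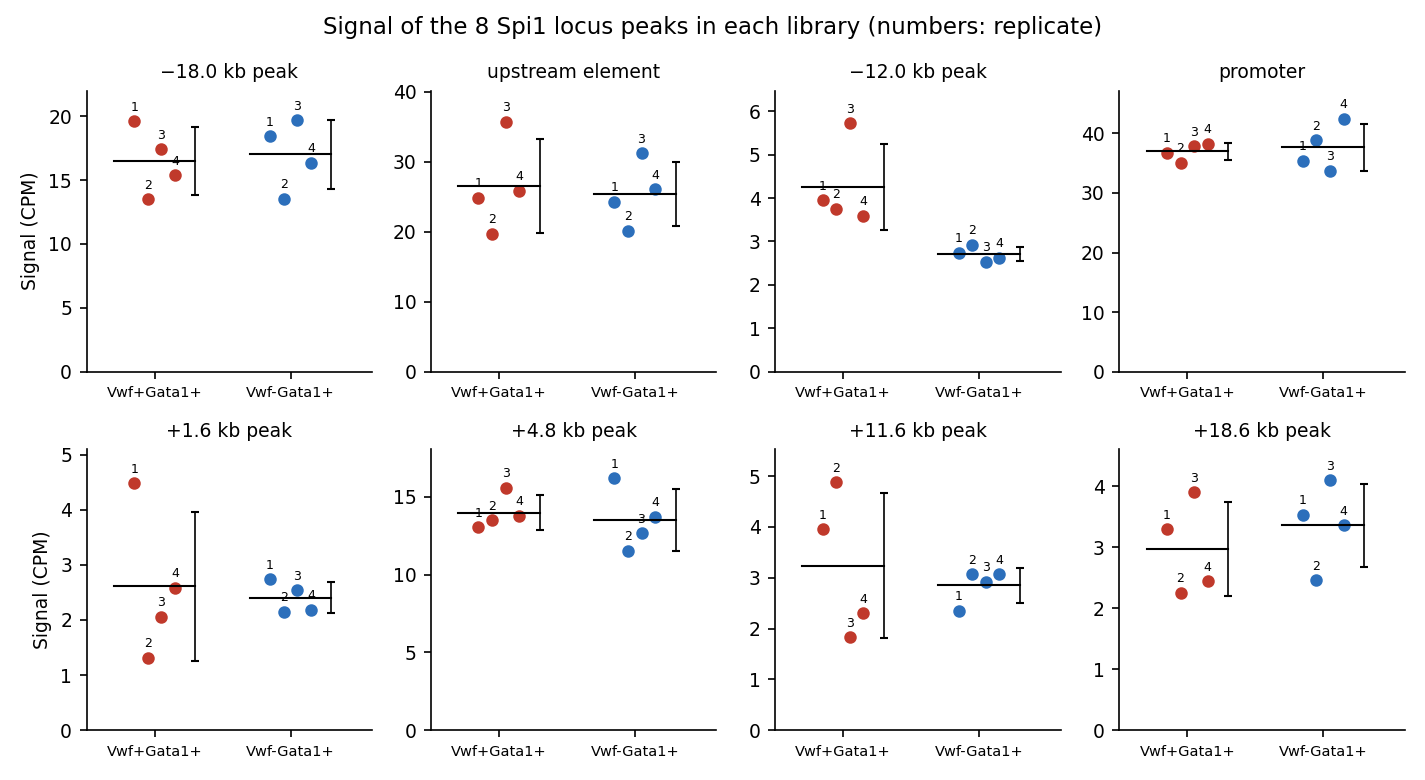
Signal (CPM, axis from 0) of the 8 peaks in each library, with Vwf+Gata1+ left of Vwf-Gata1+, replicate numbers beside the points, a line at the mean and a bar of ± 1 SD. The groups separate at the −12.0 kb peak, 3.59 to 5.73 CPM in Vwf+Gata1+ libraries against 2.54 to 2.92 CPM in Vwf-Gata1+ libraries. They overlap at the other 7 peaks, and they separate, in either direction, at 3.88% of all tested peaks.

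The −18.0 kb peak, the farthest upstream, had 19.6, 13.5, 17.4 and 15.4 CPM in replicates 1 to 4 of Vwf+Gata1+ cells, against 18.4, 13.5, 19.7 and 16.3 CPM in replicates 1 to 4 of Vwf-Gata1+ cells. The groups overlapped almost entirely. The log2 difference was -0.033 ± 0.14 (SE; edgeR adjusted p = 0.986), with a 95% interval from 0.806-fold to 1.19-fold.

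Within the gene, the +4.8 kb peak was the densest site of the locus. It had 13.0, 13.5, 15.6 and 13.8 CPM in replicates 1 to 4 of Vwf+Gata1+ cells, against 16.2, 11.5, 12.7 and 13.7 CPM in replicates 1 to 4 of Vwf-Gata1+ cells. The Vwf+Gata1+ libraries lay inside the range of the Vwf-Gata1+ libraries, and the log2 difference was 0.029 ± 0.14 (SE; edgeR adjusted p = 0.989), with a 95% interval from 0.837-fold to 1.24-fold. The peak is 347 bp wide, and it had 40.3 ± 3.21 CPM per kb over Vwf+Gata1+ libraries, against 39.0 ± 5.74 CPM per kb over Vwf-Gata1+ libraries. The URE peak had 31.6 ± 7.98 and 30.3 ± 5.46 CPM per kb in the same groups, and the ranges of the sites overlapped.

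The other 3 gene peaks were weak and gave wide intervals. The +18.6 kb peak, at the 3′ end of the gene, had 3.29, 2.25, 3.90 and 2.44 CPM in replicates 1 to 4 of Vwf+Gata1+ cells, against 3.53, 2.46, 4.10 and 3.36 CPM in replicates 1 to 4 of Vwf-Gata1+ cells. It had the lowest log2 difference of the locus, -0.18 ± 0.27 (SE; edgeR adjusted p = 0.949), and its groups overlapped. Leaving out 1 library moved this value between -0.30 and -0.084. The +1.6 kb peak had 1.31 to 4.48 CPM in Vwf+Gata1+ libraries and 2.15 to 2.74 CPM in Vwf-Gata1+ libraries, a log2 difference of 0.19 ± 0.31. Its highest value came from replicate 1 of Vwf+Gata1+ cells, with 34 counts, and without that library the difference was -0.25. The +11.6 kb peak had 1.83 to 4.88 CPM in Vwf+Gata1+ libraries and 2.35 to 3.08 CPM in Vwf-Gata1+ libraries, a log2 difference of 0.21 ± 0.28. The 95% intervals ran from 0.606-fold to 1.28-fold at the +18.6 kb peak, from 0.738-fold to 1.76-fold at the +1.6 kb peak and from 0.778-fold to 1.72-fold at the +11.6 kb peak.

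All 8 members passed the filter on low counts, and 0 passed the threshold of 0.05 (edgeR quasi-likelihood test, adjusted p from 0.646 to 0.989). Over all 97040 tested peaks the share called was 0.0144%, or 14 peaks, and 3 to 76 peaks were called with 1 library left out. The count of all peaks called was 1 with limma-voom and 511 with the replicate number as a block, so this share depends on the fit. DESeq2 called 0 of the 8 members, against 0.0137% of 80107 peaks, and limma-voom 0 of the 8, against 0.00103% of 97040 peaks, shares so low that these zeros add nothing to the first. At an unadjusted p under 0.05 stood 1 of the 8 members, the −12.0 kb peak, against 6.72% of all tested peaks. Without replicate 3 of Vwf+Gata1+ cells, 0 of the 8 were under 0.05 before adjustment. With all libraries, the groups did not overlap at 1 member, again the −12.0 kb peak, against 3.88% of all tested peaks. A single peak among 8 members is too few to be read as an excess over these shares. The log2 difference was above 0 at 5 of 8 members (median 0.042), against 50.7% of all tested peaks (median 0.0039).

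**Figure D3:**
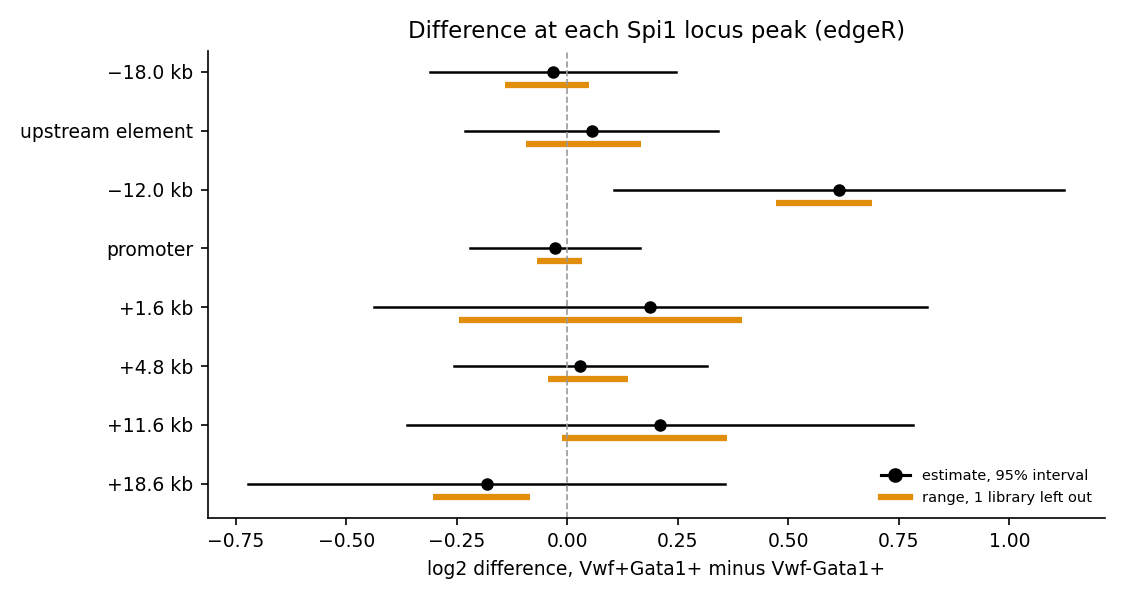
Log2 difference (Vwf+Gata1+ minus Vwf-Gata1+) at each peak in edgeR, with its unadjusted 95% interval in black and the range over the 8 fits that leave out 1 library in orange. The interval of the −12.0 kb peak lies above 0 (0.11 to 1.12), and those of the other 7 peaks include 0, with that of the promoter the narrowest (-0.22 to 0.16).

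Signal was then compared between the sites per kb of peak, which removes peak width but keeps the authors' choice of peak edges. In Vwf+Gata1+ cells the order from the densest was +4.8 kb (40.3), URE (31.6), −12.0 kb (20.1), promoter (19.9), −18.0 kb (15.7), +1.6 kb (12.3), +11.6 kb (7.55) and +18.6 kb (6.10 CPM per kb). Neighbours in this order overlapped in range, except that the promoter lay above the −18.0 kb peak in all libraries. In Vwf-Gata1+ cells the −12.0 kb peak stood lower, at 12.8 ± 0.786 CPM per kb, below the promoter (20.3 ± 2.09) and the −18.0 kb peak (16.2 ± 2.57). The URE peak lay above the promoter in all libraries of both groups. In Vwf+Gata1+ cells, where these 2 sites are not neighbours in the order, the lowest URE value was 23.5 and the highest promoter value 20.6 CPM per kb. In Vwf-Gata1+ cells the +1.6 kb peak (11.3) also lay above the +18.6 kb peak (6.90), while other neighbours overlapped.

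Set among all tested peaks, whose median was 9.13 CPM per kb, the +4.8 kb peak was as dense as or denser than 96.5% of them, the URE peak 92.8% and the promoter peak 82.5%. The −12.0 kb and −18.0 kb peaks stood at 76.4% and 75.5%. The +11.6 kb and +18.6 kb peaks were below the median, at 34.6% and 28.8%. The promoter peak was as wide as or wider than 98.7% of tested peaks, whereas the −12.0 kb and +1.6 kb peaks, both 212 bp, were among the narrowest 1.68%.

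**Figure D4:**
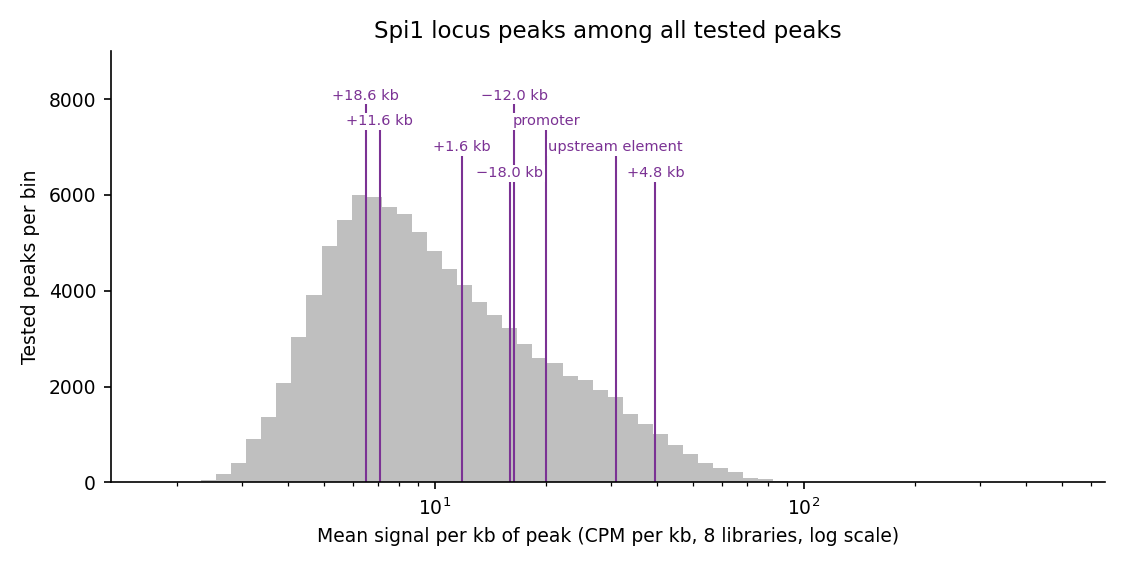
Histogram of mean signal per kb of peak (CPM per kb over 8 libraries, log axis) for the 97040 tested peaks, in grey, with a purple line at each of the 8 Spi1 locus peaks. The +4.8 kb and URE peaks lie in the upper tail, at 39.6 and 31.0 CPM per kb, and the +11.6 kb and +18.6 kb peaks near the mode, at 7.10 and 6.50 CPM per kb.

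The sites also differed in the edgeR estimate of variation between libraries beyond counting error. The biological coefficient of variation that edgeR estimated was 7.57% at the promoter, a value that 3.47% of tested peaks matched or were under, where the median was 13.2%. It was 9.64% at the +4.8 kb peak, 10.2% at the −18.0 kb peak, 11.9% at the URE peak, 12.6% at the −12.0 kb peak, 13.7% at the +18.6 kb peak and 16.4% at the +11.6 kb peak. The +1.6 kb peak had the highest value of the locus, 18.6%, at the 91.2nd percentile. These estimates are drawn toward those of peaks of like signal. At the −12.0 kb peak the measured spread was 23.3% of the mean over Vwf+Gata1+ libraries and 6.15% over Vwf-Gata1+ libraries. Counting error gives 20.2% and 24.0% there. At the +18.6 kb peak the measured spread was 25.7% and 20.2%, where counting error gives 24.3% and 21.7%. At the +1.6 kb and +11.6 kb peaks it exceeded counting error in Vwf+Gata1+ cells only. At the URE the measured spread was 25.2% over Vwf+Gata1+ libraries, against 18.0% over Vwf-Gata1+ libraries. The measured spread includes counting error and the edgeR estimate leaves it out, so the 2 are not like measures. Counting error gives 8.12% and 7.86% at the URE.

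At the edges of the window, the nearest peak outside on the upstream side (chr2:90909594-90911098) lay 3.90 kb away and was stronger than any member, with 86.1 ± 6.89 CPM over Vwf+Gata1+ libraries, against 79.7 ± 13.6 CPM over Vwf-Gata1+ libraries (± SD, n = 4 per group). The nearest on the other side (chr2:90972160-90972613) lay 12.2 kb away, with 3.51 ± 0.566 CPM over Vwf+Gata1+ libraries, against 3.90 ± 0.928 CPM over Vwf-Gata1+ libraries. Neither passed the threshold (edgeR adjusted p = 0.888 and 0.948).

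Among 44493 tested peaks with a mean of at least 5 CPM that lie more than 1 Mb away or on another chromosome, the 3 whose log2 signal correlated best with the summed locus over the 8 libraries were on chromosomes 8, 16 and 4. The peak chr8:123022137-123022576 had a Pearson r of 0.989, chr16:18175934-18176663 of 0.985 and chr4:135696205-135696533 of 0.979. These are the highest of 44493 values over 8 libraries under the same scaling, and are given as a description. None of the 3 passed the threshold between the groups (edgeR adjusted p from 0.950 to 0.984).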

How the data were processed

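The authors deposited 1 table of raw counts per peak, with 134473 peaks and 8 libraries, made by Omni-ATAC and a Nextera kit per the labels' protocols. The submitters' processing notes name mm9 as the build and, without versions, Bowtie2, MACS2, Trim Galore, FastQC, SAMtools and Picard. The sources used here do not give whether reads or fragments were counted, whether ends were shifted for Tn5, how duplicates were treated or how peaks were merged across libraries. Starts were read as 1-based.

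Groups came from the cell type in the labels. Peaks were filtered with filterByExpr of edgeR (minimum count 10, minimum total 15), leaving 97040 peaks, 72.2% of all, with 96.3% of the counts. After TMM scaling, all kept peaks were tested by the quasi-likelihood method of edgeR (robust dispersions), with Benjamini-Hochberg adjustment and a threshold of 0.05. The standard error is the size of the log2 difference over the square root of F, and intervals are at 95%. CPM is per 1000000 counts in kept peaks after TMM. The test was checked on simulated data. Values in every library are given for the URE and promoter peaks (within 1000 bp of the start), the densest peak, the highest and lowest difference and any unadjusted p under 0.05, and also for the −18.0 kb peak, which was chosen after its values were seen. Alternatives were RLE and total count scaling, no filter, DESeq2, a CPM of 1 in 4 libraries, an adjusted p under 0.1, limma-voom with quality weights, the replicate number as a block, other class limits and each library left out. The members and lists were chosen with earlier results of these data known. The RefSeq tables of GRCm38.p6 were used only for gene names, neighbours and the length of the Spi1 record. Software was Python 3.11.15 with matplotlib 3.10.9, and R 4.3.3 with DESeq2 1.42.0, limma 3.58.1 and edgeR 4.0.16.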

Additional observations from a re-analysis of the deposited data

Results flagged for a closer look

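At the −12.0 kb peak, replicate 3 of Vwf+Gata1+ cells stood apart from the other libraries of its group at 5.73 CPM (25 counts), with a gap to the next library of 0.833 of the group's range. Of 16 groups of 4 libraries examined in this way, this was the 1 that stood out, and chance flags about 1 in 20. The log2 difference at the peak was 0.47 without this library and 0.61 with it.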

How the results depend on the processing

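The count of Spi1 locus peaks past the threshold was 0 in all 16 other settings, and the lowest adjusted p of any member was 0.332, at the −12.0 kb peak with the replicate number as a block. The difference at that peak was 0.55 to 0.63 in the fits with all libraries and 0.47 to 0.69 with 1 library left out. Of 120 values for the 8 peaks, 11 had the other sign, all with 1 library left out; the ranges over those fits were -0.14 to 0.049 at the −18.0 kb peak, -0.094 to 0.17 at the URE, -0.070 to 0.034 at the promoter, -0.25 to 0.40 at +1.6 kb, -0.043 to 0.14 at +4.8 kb, -0.013 to 0.36 at +11.6 kb and, with no change of sign, -0.30 to -0.084 at +18.6 kb. The promoter in Vwf+Gata1+ cells averaged 35.4 CPM with total count scaling. That value is per 1000000 counts in all peaks and not in kept peaks, so it is lower in part by construction. With a promoter limit of 2000 bp, which adds the +1.6 kb peak by construction, the promoter averaged 39.6 CPM.

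Over all peaks, 14 were called, 60 at an adjusted p under 0.1 (by construction), 27 with total count scaling, 1 with limma-voom and 511 with the replicate number as a block; otherwise the cause was not tested. Leaving out replicates 1 to 4 of Vwf+Gata1+ cells gave 76, 4, 5 and 7, and of Vwf-Gata1+ cells 3, 5, 55 and 11. The labels do not say what a shared replicate number stands for. Deviations of libraries with the same number correlated with r = 0.301, 0.163, 0.0740 and 0.0103 (replicates 1 to 4, across peaks). By this measure, 5 of 8 libraries were closest to the one of their own number. Total counts also stood in the same order of the numbers in both groups, and whether the replicates are paired was not tested. With the block, the URE differed by 0.048 ± 0.092 (SE) and the −12.0 kb peak by 0.61 ± 0.25. The 4 weakest peaks had 7 to 34 counts per library, and at +1.6 kb the spread over Vwf+Gata1+ libraries (51.7%) also exceeded counting error (28.0%).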

Other observations

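At the URE the 4 replicate numbers stood in the same order in both groups: replicate 3 was the highest, with 35.8 CPM in the Vwf+Gata1+ sort against 31.2 CPM in the Vwf-Gata1+ sort, then replicates 4 and 1, and replicate 2 was the lowest, at 19.7 and 20.1 CPM. The spread between numbers at this element was larger than the difference between the groups, whose means were 26.6 and 25.4 CPM. The +18.6 kb peak also kept 1 order in both groups, which makes 2 of 8 members, against 6.42% of all tested peaks. The promoter did not: its lowest library was replicate 2 in Vwf+Gata1+ cells and replicate 3 in Vwf-Gata1+ cells. Replicate 3 also had the lowest total of each sort, 4628997 for Vwf+Gata1+ and 5447813 for Vwf-Gata1+. Replicate 2, the lowest at the URE and the +18.6 kb peak, had the next lowest totals, 5632393 and 6675756 respectively. The shared orders were noticed after the values were seen, and what the numbers share was not tested. Whether signal at these peaks follows the total of a library was not tested either.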
